A study of Mus musculus with 11 samples.

Results

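The genes described here are markers of radial glia and neural stem cells: Pax6, Sox2, Sox9, Hmga2, Nes, Vim, Prom1, Fabp7 and Slc1a3. They were chosen by name, by matching a list of 10 names to gene symbols, and 9 of the 10 had an entry. The remaining name, Glast, is an older name of Slc1a3. These 9 genes are among the 20475 genes measured in each of 2 tables.

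Poly(A) RNA of mouse forebrain at E12.5 was sequenced to ask which genes differ when Kif20a, a kinesin motor used in cell division, is inactivated. The germline table has 3 libraries of each genotype, and the inducible table has 2 of controls and 3 of knockouts, with littermates compared in both. The labels name the tissue forebrain, while the paper names cortex. After normalization the library totals lay between 13048716 and 15551274 normalized counts in the germline table and between 24118519.7 and 24497307 in the inducible table, and these totals no longer show sequencing depth.

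The germline knockouts were homozygous for a knockout-first allele, which carries a LacZ-neomycin cassette within Kif20a. The line came from 1 embryonic stem cell clone crossed to C57BL/6J mice. The inducible knockouts carried Nestin-CreERT2 with Kif20a fl/fl, and tamoxifen was given to the dams on embryonic days E9.5 and also E10.5. For other experiments the paper describes the controls of this line as Kif20a fl/fl littermates, whereas the labels call them wild type. CreERT2 is a recombinase that enters the nucleus when tamoxifen binds it, and here the Nestin promoter drives its expression in neural progenitors. Nothing in the labels says that replicates came from separate animals beyond their being separate samples, so p-values measure the spread between these samples.

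Radial glia line the ventricle of the embryonic brain, stretch a process to the outer surface and divide to give neurons, intermediate progenitors and later glia. Their identity is held by transcription factors such as PAX6 and SOX2, their shape by the intermediate filaments nestin and vimentin, and their glial character by the lipid carrier FABP7 and the glutamate transporter SLC1A3. In bulk tissue, fewer cells of a type and less RNA per cell cannot be told apart.

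Kif20a itself was read first, as a check of the labels. Its level was 2456, 2295 and 2680.2 normalized counts in the wild-type libraries of the germline table and 409, 374 and 503 in the germline knockouts. The inducible values were 4760.15 and 4844 in the controls and 3125, 2915 and 2853 in the knockouts. Every knockout library lay below every wild-type library of its table. The log2 fold change, knockout minus wild type, was -2.54 for the germline table (limma, standard error 0.15, Benjamini-Hochberg adjusted p = 0.00845) and -0.70 for the inducible table (standard error 0.06, adjusted p = 0.0107). The inducible knockouts thus kept 0.617 times the control level of Kif20a RNA. The paper, without showing the data, places the signal left in the germline knockouts in the first exons of Kif20a. For the inducible knockouts it proposes varied Cre expression as a possible reason. Exons of Kif20a and its opposite-strand neighbour Cdc23 share 1259 bases, and no source used here states that reads were counted by strand.

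Some libraries stood apart before any gene was compared. Germline knockout replicate 2 lay at 91.2 on a first principal component that held 58.0% of the variance, and the remaining 5 libraries lay from -38.4 to 3.84. In that library 7 of the 15 cranial mesenchyme genes and 6 of the 10 microglia genes lay at or under 3 normalized counts, and Col3a1, the most abundant mesenchyme gene, was at 2.46 against 1838 to 8253 in the other germline libraries. The summed level of 20 neuronal genes was 72644, 73605 and 60440.2 in the germline wild-type libraries and 32205, 129168 and 39999 in the knockouts. Knockout replicate 2 was thus the highest and knockout replicates 1 and 3 were the lowest of the 6. A list of 20 low oxygen and glycolysis genes summed to 26991, 27401 and 26961 in the wild-type libraries and 85316.5, 124028 and 31725 in the knockouts, so replicates 1 and 2 stood far above the rest. Inducible libraries differed as well. Their ventral telencephalon genes summed to 14354 and 7499 in the controls and 8335, 10114 and 17496 in the knockouts. Inducible knockout replicate 3 was highest in that sum and lowest in the sum of cortical hem and choroid plexus genes, at 8416. The part of these differences in the values of the radial glia genes was not tested, and the values are given with and without single libraries where this matters.

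Across the 9 radial glia genes, differences between the groups were small or uneven among libraries. Fabp7 was lower in every germline knockout library, by a size that depended on wild-type replicate 1. At the thresholds used here, a fold change of at least 1.5 with an unadjusted P of at most 0.05, 1 of the 9 genes was lower and 0 were higher in the germline knockouts (limma). Over the 13938 genes tested, 0.667% were lower and 2.07% were higher by the same rule. In the inducible knockouts 0 of the 9 passed in either direction, against 0.490% lower and 0.802% higher of 14081 genes tested. There only Sox9, 1 of the 9, reached an unadjusted P of 0.05 or less in limma, beside 6.01% of all genes tested. All 9 genes passed the filter on low values in both tables. Summed normalized counts of the 9 came to 42096, 44932 and 50948.5 for germline wild-type libraries and 50561, 43004 and 47025 in the knockouts, and 90691 and 98096 against 97227, 90275 and 91838 in the inducible table. Vim was the most abundant gene in this sum in every library, and the sums overlapped in both tables.

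Knockout and wild-type values were fully apart for 1 of the 9 genes in the germline comparison, which was lower, where 7.55% of all tested genes were lower and 5.90% higher without overlap. In the inducible comparison they were fully apart for 3 of the 9, all lower, beside 12.2% lower and 10.4% higher of all tested genes. After Benjamini-Hochberg adjustment over all tested genes in limma, 0 of the 9 had an adjusted p under 0.05 in either comparison, with 0.00717% and 0.0355% of all genes below it. With 3 against 3 or 2 against 3 libraries the smallest p of an exact permutation test is 0.1, so no single gene could pass 0.05 by it. The median log2 fold change of the 9 genes was 0.11 in the germline comparison against -0.04 over all tested genes, and 0.02 against -0.002 in the inducible comparison.

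**Figure D1:**
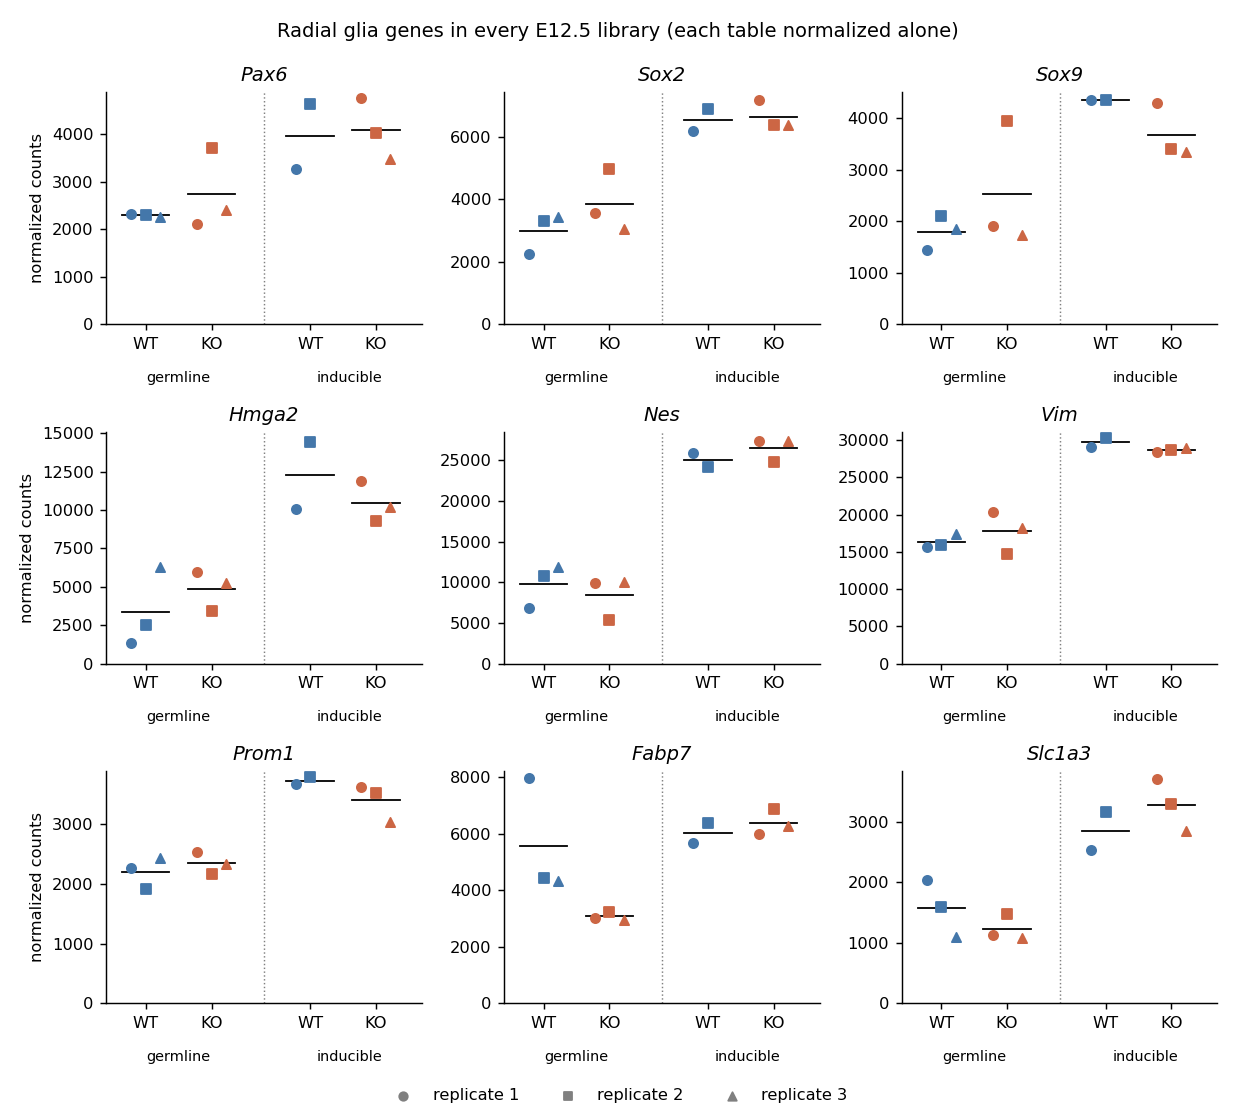
Normalized counts of the 9 radial glia genes in each library, with germline libraries left of the dotted line and inducible libraries right of it, points shaped by replicate number and bars at group means. Fabp7 in the germline table is the panel with all knockout points (2959.9 to 3230.5) below all wild-type points (4339 to 7955).

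Pax6 encodes a paired-domain and homeodomain transcription factor that marks dorsal telencephalic radial glia and drives their neurogenic division. Its normalized counts were 2331, 2310.0 and 2254 in the germline wild-type libraries and 2121, 3715 and 2402 in the germline knockouts. The wild-type libraries lay close together, knockout replicates 1 and 3 lay on either side of them, and only knockout replicate 2 was well above. Its log2 fold change was 0.21 (standard error 0.21, 95% confidence interval -0.28 to 0.71) and, without knockout replicate 2, -0.03. Inducible counts were 3276 and 4644 in the controls and 4758, 4026 and 3473 in the knockouts. The 2 lowest values were in the libraries with the highest ventral telencephalon sums. The 2 controls were nearly as far apart as the 5 libraries together, and the log2 fold change of 0.05 (standard error 0.17) turned to -0.20 without control replicate 1 and -0.06 without knockout replicate 1.

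Pax6 reads need a caution. In the GENCODE M1 annotation on NCBIM37, the assembly that the name mm9 stands for, Pax6 spans chr2:105509053-105543317 on the plus strand, and 5542 bases of its exons also lie in exons of Elp4 on the opposite strand. The log2 fold change of Elp4, an Elongator subunit gene, was -0.03 (standard error 0.13) between germline groups and -0.001 (standard error 0.07) between inducible groups.

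Sox2 encodes the HMG-box factor that keeps neural progenitors undifferentiated. Its counts were 2237, 3305 and 3435 in the germline wild-type libraries and 3563, 4971 and 3053 in the knockouts. Wild-type replicate 1 was the lowest and knockout replicate 2 the highest, and the remaining 4 libraries mixed. Sox2 had a germline log2 fold change of 0.36 (standard error 0.24), and of 0.17 without knockout replicate 2 and also without wild-type replicate 1. The inducible counts were 6198 and 6886 in the controls and 7191, 6379.8 and 6385 in the knockouts, with knockout replicate 1 above both controls, the other knockouts between them and a log2 fold change of 0.02 (standard error 0.07). Without knockout replicate 1 or control replicate 1 this value was -0.03 or -0.05.

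Sox9 encodes a related HMG-box factor that is needed to set up neural stem cells and later the glial fate. In germline wild-type libraries it had 1449, 2105 and 1840.3 normalized counts, against 1913, 3944 and 1722 in the knockouts. Apart from knockout replicate 2, the highest of the 6, the knockouts lay inside the wild-type range. The log2 fold change of 0.40 (standard error 0.32) was 0.03 without that library. It was 0.26 without wild-type replicate 1 and 0.63 without knockout replicate 3. Inducible Sox9 values were 4351 and 4358 in the controls and 4293, 3404 and 3341 in the knockouts. All 3 knockouts lay below both controls, replicate 1 by a small margin and replicates 2 and 3 clearly. This was the lowest inducible estimate of the 9, a log2 fold change of -0.25 (limma, standard error 0.11, unadjusted P = 0.0478, Benjamini-Hochberg adjusted p = 0.825), which is a smaller fold than the 1.5 of the threshold. It ranged from -0.37 without knockout replicate 1 (limma, unadjusted P = 0.000275) to -0.19 without knockout replicate 3. Leaving out knockout replicate 2 or 3 brought the unadjusted P of limma to 0.144 or 0.119, and it was 0.110 without a trend. Without either control the estimate stayed at -0.25. Such a fit has 1 control left and no spread between controls, so it does not show how firm the difference is. With a replicate block the unadjusted P of limma was 0.112. That estimate, -0.19, equals the one without knockout replicate 3, which has no control of its number.

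In all 3 transcription factor genes the highest germline value was in knockout replicate 2, the library with the highest neuronal sum and the lowest mesenchyme sum. Their germline estimates above 0 shrank or turned when it was left out, as given for each. Those of Sox2 and Sox9 also shrank without wild-type replicate 1.

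**Figure D2:**
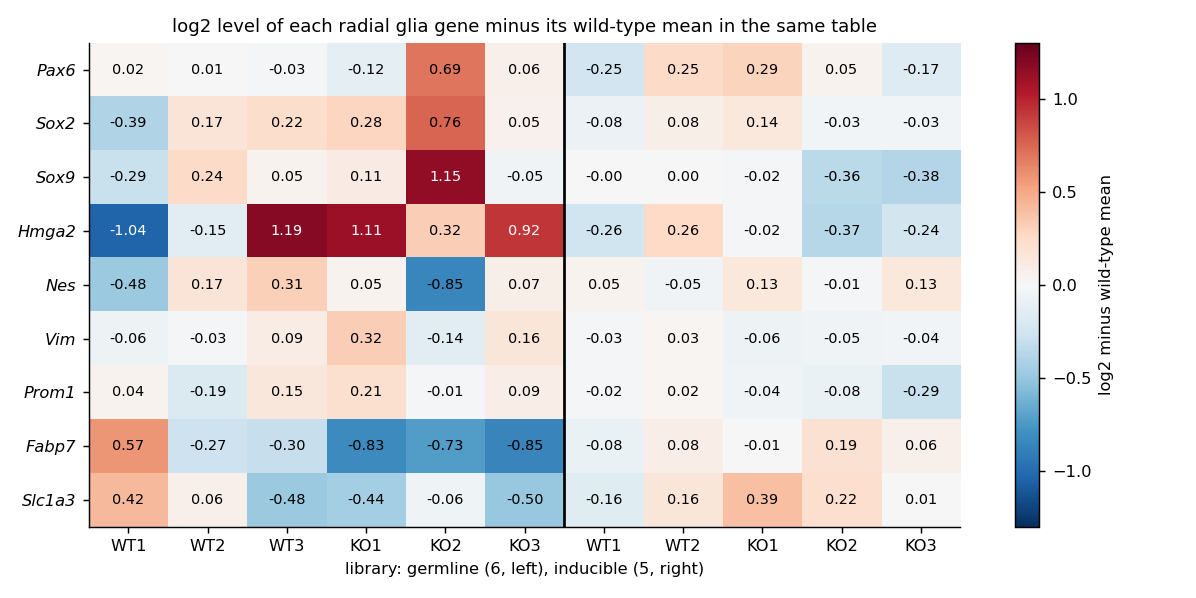
The log2 level of each radial glia gene minus its wild-type mean in the same table, with 1 column per library and red above and blue below that mean. Germline knockout replicate 2 is high for Pax6 (0.69), Sox2 (0.76) and Sox9 (1.15) and low for Nes (-0.85), while Fabp7 is low in every germline knockout library.

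Hmga2 encodes a chromatin protein with AT-hook domains that is abundant in young neural stem cells and declines as development proceeds. For the germline wild-type libraries the values were 1343, 2493 and 6290.1 normalized counts, and for the knockouts 5983, 3438 and 5243. The wild-type libraries spanned 4.68-fold, the widest of the 9 genes, with replicate 3 above every knockout and replicates 1 and 2 below every knockout. Hmga2 had a log2 fold change of 0.79 (limma, standard error 0.53, 95% confidence interval -0.46 to 2.03, unadjusted P = 0.181). Leaving out wild-type replicate 3 gave 1.38 (limma, unadjusted P = 0.00681), past both thresholds, while leaving out replicate 1 gave 0.27. The inducible counts were 10069 and 14435 in the controls and 11900.1, 9315 and 10206 in the knockouts. Control replicate 2 was the highest, control replicate 1 lay among the knockouts, and the log2 fold change of -0.21 (standard error 0.16) was 0.05 without control replicate 2 and -0.47 without control replicate 1. Hmga2 also shares 140 exon bases with a long noncoding RNA gene of the opposite strand.

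Nes encodes nestin, an intermediate filament protein of dividing neural progenitors. Its counts were 6852, 10779 and 11879 in the germline wild-type libraries and 9906, 5312 and 10059 in the knockouts. The lowest libraries of each group, wild-type replicate 1 and knockout replicate 2, stood away from the other 4. Nes had a germline log2 fold change of -0.24 (standard error 0.31) and 0.06 without knockout replicate 2. The inducible Nes counts were 25853 and 24122 in the controls and 27370.1, 24751 and 27369 in the knockouts, with knockout replicate 2 between the controls and a log2 fold change of 0.08 (standard error 0.07), which was 0.13 without control replicate 1 and 0.03 without control replicate 2. Whether any reads of the Nestin-CreERT2 transgene fell on Nes exons is not given in the sources used here.

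Vim encodes vimentin, the other intermediate filament of the radial process. It had 15627, 15978 and 17387 counts in the germline wild-type libraries and 20385, 14754 and 18173 in the knockouts, which lay on both sides of the wild-type range. The summed mesenchyme genes, markers of another cell type that makes vimentin, were 7828, 5491 and 9590.4 in the wild-type libraries and 23176, 712 and 11873 in the knockouts, so knockout replicates 1 and 2 held the highest and lowest value of both. The part of mesenchyme in the Vim values was not tested. Inducible Vim counts were 29080.2 and 30327 in the controls and 28409, 28710.0 and 28902 in the knockouts. Every inducible knockout was below every control, but by a log2 fold change of only -0.05 (standard error 0.05), the gene with the tightest values of the 9. The germline log2 fold change was 0.11 (standard error 0.16), with 0.01 when knockout replicate 1 was left out and 0.24 when knockout replicate 2 was. The inducible value was -0.08 without control replicate 1 and -0.02 without control replicate 2.

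Prom1 encodes prominin-1, also known as CD133, a membrane protein of apical protrusions. Its germline counts were 2259, 1917 and 2427 in the wild-type libraries and 2537, 2171 and 2328 in the knockouts, with knockout replicate 1 the highest, wild-type replicate 2 the lowest and the rest mixed. The inducible counts were 3667 and 3789 in the controls and 3622, 3523 and 3042 in the knockouts. All 3 inducible knockouts lay below both controls, replicate 3 by the most. That library, also lowest for Sox9, had the highest ventral telencephalon and the lowest cortical hem sum of the inducible libraries. The log2 fold changes were 0.10 (standard error 0.14) for the germline and -0.14 (standard error 0.08) for the inducible table, and the germline value was -0.0002 without wild-type replicate 2. Without knockout replicate 3 the inducible value was -0.06. In the annotation 89 bases of its longest coding transcript overlap exons of Gm16401 on the opposite strand.

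Fabp7, or brain lipid binding protein, carries fatty acids in radial glia and is a classical marker of their glial character. In the germline wild-type libraries it had 7955, 4447 and 4339 normalized counts, and in the knockouts 3021, 3230.5 and 2959.9. The 3 knockouts were tightly grouped and all lay below the lowest wild-type library, while wild-type replicate 1 was far above the other 2. The means were 5581 ± 2057 and 3071 ± 142 (SD, n = 3 libraries each). The log2 fold change was -0.80 (limma, standard error 0.24, 95% confidence interval -1.37 to -0.24, unadjusted P = 0.0120, Benjamini-Hochberg adjusted p = 0.779), a 1.74-fold lower level in 3 of 3 knockout libraries. It did not pass the adjustment over all 13938 genes.

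The size of this difference depended on wild-type replicate 1. Without it the Fabp7 log2 fold change was -0.52 (limma, standard error 0.12, unadjusted P = 0.00555), under the 1.5-fold threshold, and the groups still did not overlap. Without wild-type replicate 3 it was -0.95. Leaving out knockout replicate 2 gave -0.84. The part of cell composition and of low oxygen genes in the Fabp7 difference was not tested. Inducible Fabp7 counts were 5669.6 and 6377 in the controls and 5983, 6882 and 6281 in the knockouts. These groups overlapped, with a log2 fold change of 0.08 (standard error 0.08, 95% confidence interval -0.10 to 0.27). The difference between the 2 comparisons was not tested, since the tables were normalized separately.

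Slc1a3 encodes the glial glutamate and aspartate transporter GLAST, which clears glutamate from around radial glia and astrocytes. Its counts were 2044, 1598 and 1097 in the germline wild-type libraries and 1130.15, 1469 and 1084 in the knockouts. Wild-type replicate 3 lay among the knockouts and the other 2 wild-type libraries above them. Its germline log2 fold change was -0.33 (standard error 0.24), reaching -0.57 without wild-type replicate 3 and only -0.12 if replicate 1 was left out. Its inducible counts were 2526 and 3158 in the controls and 3699.9, 3286 and 2839 in the knockouts. Knockout replicates 1 and 2 lay above both controls and knockout replicate 3 between them, for a log2 fold change of 0.21 (standard error 0.13). Without control replicate 1 it was 0.04, without control replicate 2 it was 0.37, and without knockout replicate 1 it was 0.11.

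**Figure D3:**
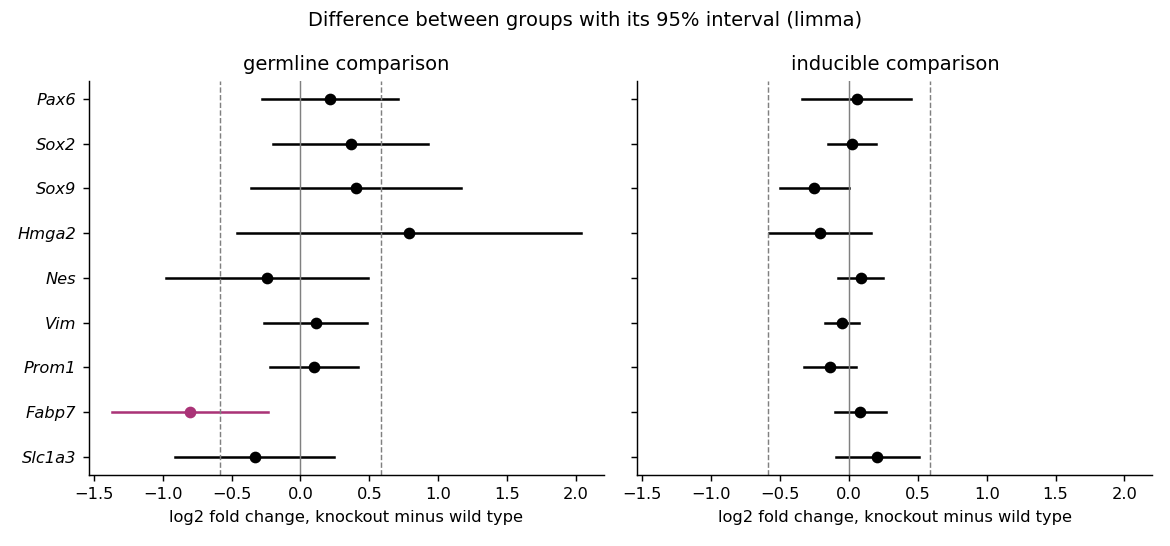
Log2 fold changes of the 9 radial glia genes, knockout minus wild type, with 95% confidence intervals from limma; dashed lines mark a 1.5-fold change. Fabp7 in the germline comparison (-0.80) is the point past the thresholds, and all 9 inducible estimates lie between -0.25 and 0.21.

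The precision of the 2 comparisons differed. Standard errors of the log2 fold changes of the 9 genes ran from 0.14 to 0.53 in the germline comparison, where the median over all tested genes was 0.22, and from 0.05 to 0.17 in the inducible comparison, where it was 0.09. Of the 9 germline estimates 7 were under 1.5-fold, and the intervals of 5 of these 7 reached past it. All 9 inducible estimates were under 1.5-fold and no interval reached past 1.5-fold on either side.

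The upstream sequences of Fabp7 and Hmga2, the genes with the lowest and the highest germline estimate, are shown to give the 2 promoters a concrete form. They are the 250 bases before the annotated start in RefSeq on GRCm38.p6, 5′ to 3′ on the gene's own strand, at chr10:57784673-57784922 (plus strand) for Fabp7 and chr10:120476470-120476719 (minus strand) for Hmga2. Capitals mark matches on either strand to 4 motifs, namely TGGGAA, the core bound by the Notch effector RBPJ, ACAAAG and ACAATG, cores of SOX factor sites, and CCAAT, the box bound by NF-Y. The letters of TGGGAA and of CCAAT read on the other strand can overlap.
Fabp7: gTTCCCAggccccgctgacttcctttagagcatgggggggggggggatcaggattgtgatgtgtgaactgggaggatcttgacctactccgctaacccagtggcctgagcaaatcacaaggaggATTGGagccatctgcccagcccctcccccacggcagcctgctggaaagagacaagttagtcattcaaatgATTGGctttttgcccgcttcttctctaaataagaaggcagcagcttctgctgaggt
Hmga2: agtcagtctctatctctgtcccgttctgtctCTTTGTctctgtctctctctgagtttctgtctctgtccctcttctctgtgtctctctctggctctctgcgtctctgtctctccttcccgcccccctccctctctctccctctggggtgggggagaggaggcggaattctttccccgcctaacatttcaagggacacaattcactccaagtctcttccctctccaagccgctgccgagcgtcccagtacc

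The Fabp7 window held TGGGAA at position -249 and CCAAT at -126 and -56, each read on the other strand, and the Hmga2 window held ACAAAG at -219, also on the other strand. Of 32851 such windows in the RefSeq table, 21.6% held TGGGAA, 16.5% ACAAAG, 10.7% ACAATG and 33.8% CCAAT. The table lists 10 start sites for 8 of the 9 genes, with none for Sox9. Among these 10 windows, 2 held TGGGAA, 3 ACAAAG, 0 ACAATG and 6 CCAAT. A match describes letters only, and no binding was measured.

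Levels were compared between genes per kilobase of the longest coding transcript, within each table. In the germline wild-type libraries Vim stood highest at 7447 ± 425 normalized counts per kilobase (SD, n = 3), followed by Fabp7 at 6341 ± 2338, and their ranges over libraries overlapped. Nes at 1606 ± 431, Sox2 at 1218 ± 268, Hmga2 at 886 ± 679 and Prom1 at 588 ± 69.4 came next, each overlapping its neighbour in the order. Sox9 at 435 ± 79.8, Slc1a3 at 379 ± 114 and Pax6 at 274 ± 4.74 were lowest, again with each overlapping the next. The ranges did not overlap between Fabp7 and Nes or between Prom1 and Sox9.

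In the inducible controls the order was Vim (13545 ± 402 normalized counts per kilobase, SD, n = 2), Fabp7 (6845 ± 569), Nes (4079 ± 200), Hmga2 (3216 ± 810), Sox2 (2662 ± 198), Sox9 (1053 ± 1.2), Prom1 (996 ± 23.0), Slc1a3 (683 ± 107) and Pax6 (471 ± 115). Neighbours in this order overlapped only for Hmga2 with Sox2. With all annotated exons as the length, an alternative chosen after seeing the data, the germline order was kept and Hmga2 and Sox2 changed places in the inducible order. RefSeq exons were counted by the authors, so lengths from GENCODE M1 are approximate. For Pax6, 5542 of the 8401 bases also lie in Elp4 exons, and its place in the order was not examined without them.

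**Figure D4:**
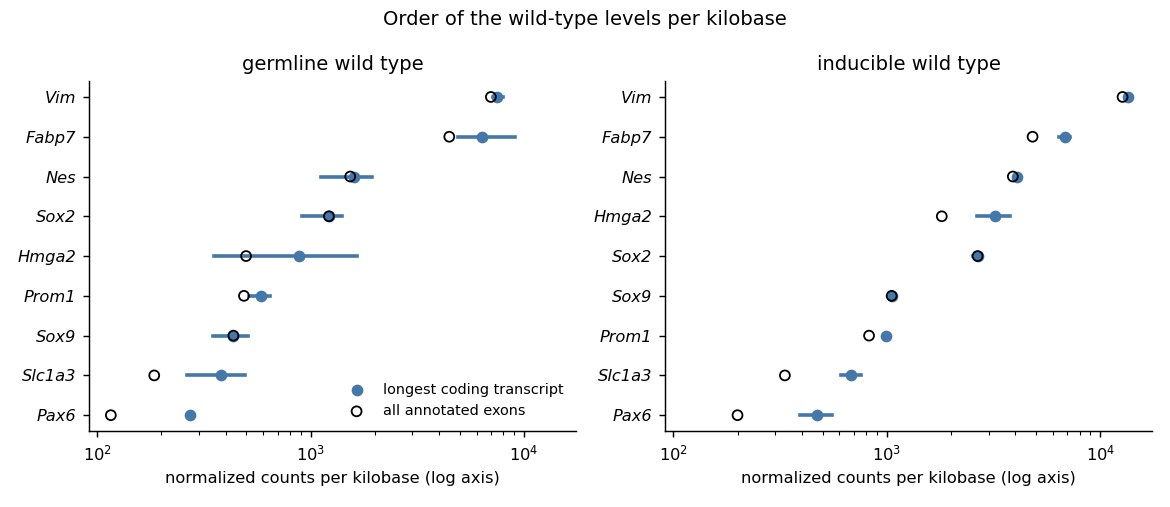
Wild-type normalized counts per kilobase of the 9 radial glia genes on a log axis, in order of level, with filled means for the longest coding transcript, bars from the lowest to the highest library and open points for all annotated exons. With either of these lengths Vim and Fabp7 lead and Pax6 is lowest in both tables. Both Pax6 lengths include the bases shared with Elp4.

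The other genes of radial glia and progenitors were taken as 5 lists of 78 genes in all. In the germline comparison 1 of the 76 tested was lower and 2 were higher at the same thresholds in limma, with a median log2 fold change of 0.07, beside 0.667% lower and 2.07% higher of all genes tested. In the inducible comparison 1 of 75 was lower and 0 were higher, with a median of -0.04, beside 0.490% and 0.802% of all genes, and 0 had a Benjamini-Hochberg adjusted p under 0.05 in either. Without germline knockout replicate 2 the germline count was 7 lower and 9 higher genes, while over all genes it went from 93 to 642 lower and from 289 to 587 higher. If knockout replicate 3 was dropped, 2 were lower and 4 higher (403 and 617 over all genes), and if wild-type replicate 3 was dropped, 1 and 4 (128 and 226). Over all genes the lower and higher counts were 55 and 146 if knockout replicate 1 was dropped, 42 and 115 for wild-type replicate 1 and 46 and 133 for wild-type replicate 2, where the progenitor counts were 4, 3 and 2 in either direction. The inducible count was 0 without knockout replicate 1 or 2, and 2 without knockout replicate 3 or either control. The lower and higher counts over all genes were 89 and 114, 69 and 80, and 68 and 114 without knockout replicates 1, 2 and 3, and 72 and 250, and 44 and 82 without control replicates 1 and 2, against 69 and 113 with all libraries.

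Among 20 progenitor transcription factors, Sox8, an HMG-box gene of the SOXE group like Sox9, was the germline gene that passed. It had 189, 211 and 147 counts in the wild-type libraries and 80.6, 131 and 92.4 in the knockouts. All knockouts were below all wild-type libraries, at a log2 fold change of -0.85 (limma, standard error 0.26, unadjusted P = 0.0138). It was not past the thresholds without wild-type replicate 2. Inducible Sox8 values were 294 and 304 in the controls and 373, 306 and 429 in the knockouts, all above both controls, at a log2 fold change of 0.29 (limma, standard error 0.14, unadjusted P = 0.0815). The median of the list was 0.07 in the germline comparison and -0.13 in the inducible one, where 0 of 20 passed. In the germline comparison 4 of 20 reached an unadjusted P of 0.05 or less in limma, 2 lower and 2 higher. In the inducible comparison 5 of 20 did, all lower, beside 5.39% (germline) and 6.01% (inducible) of all genes tested. Estimates were above 0 for 12 of 20 (germline) and 3 of 20 (inducible), beside 44.0% and 49.2% of all genes.

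The list of 13 RNA-binding and chromatin genes of early progenitors held Lin28b, which encodes a protein that blocks maturation of let-7 microRNAs, known repressors of Hmga2. Lin28b had 224, 357 and 540.4 counts in the germline wild-type libraries and 1085, 732 and 658 in the knockouts. The groups did not overlap, and the log2 fold change was 1.196 (limma, standard error 0.34, unadjusted P = 0.00995). Its lowest value was in wild-type replicate 1 and its highest in knockout replicate 1. Hmga2 was also lowest in wild-type replicate 1, but was highest in wild-type replicate 3. Inducible Lin28b values were 607 and 559.6 in the controls and 542, 614 and 644 in the knockouts, which overlapped. The list's median was 0.32 for the germline and -0.02 for the inducible table, and 12 of 13 and 5 of 13 estimates were above 0, beside 44.0% and 49.2% of all genes.

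The 13 Notch signalling genes had 0 past the thresholds in either comparison. Their estimates were above 0 for 11 of 13 in the germline comparison (median 0.19) and for 2 of 13 in the inducible comparison (median -0.19), beside 44.0% and 49.2% of all genes. The list's median per germline knockout library was 0.20, 0.51 and 0.02 above the wild-type mean in log2. In the inducible comparison 5 lower genes and 1 higher gene reached an unadjusted P of 0.05 or less in limma. In the germline comparison 0 of 13 reached it in limma, and over all genes 5.39% (germline) and 6.01% (inducible) did. The difference between the comparisons was not tested.

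Of 22 genes of the radial process, adhesion, matrix and lipids, Zfp36l1, an RNA decay factor gene, passed in the germline comparison. It had 1799.8, 2702 and 2933 counts in the wild-type libraries and 4279.9, 4152 and 2784 in the knockouts. Knockout replicates 1 and 2 were above and replicate 3 inside the wild-type range, and the log2 fold change was 0.60 (limma, standard error 0.24, unadjusted P = 0.0437). It no longer passed without knockout replicate 1 or 2 or wild-type replicate 1 or 2, nor with a replicate block, array weights, no trend, quantile normalization or the Y-linked covariate. In the germline comparison 1 lower and 1 higher gene of the 22 reached an unadjusted P of 0.05 or less in limma, beside 5.39% of all genes. Germline groups did not overlap for 2 lower and 0 higher genes, beside 7.55% and 5.90% of all genes. Estimates were above 0 for 7 of 22 (germline) and 12 of 22 (inducible), beside 44.0% and 49.2%. The medians were -0.21 and 0.01 in the germline and inducible comparisons.

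Of the astrocyte and late radial glia genes, Gfap was at or under 3 normalized counts in 7 of the 11 libraries. The list's sum was 1444, 830.3 and 1015 in the germline wild-type libraries and 1339, 671 and 861 in the knockouts, with Sparcl1 as its most abundant gene. Aqp4, a water channel gene of astrocytes, had 32.5 and 33.0 counts in the inducible controls and 18.4, 24.1 and 22.3 in the knockouts. The log2 fold change was -0.59 (limma, standard error 0.25, unadjusted P = 0.0489), and it did not pass when any single inducible library was left out, nor with a replicate block, array weights or no filter. Germline Aqp4 counts were 34.9, 16.4 and 18.1 in the wild-type libraries and 8.67, 8.91 and 15.1 in the knockouts, without overlap. That log2 fold change was -0.98 (limma, standard error 0.48, unadjusted P = 0.0779), and it passed the thresholds without a trend. The list's medians were -0.65 over 8 tested genes (germline) and 0.16 over 7 (inducible). Estimates were above 0 for 1 of 8 and 6 of 7, beside 44.0% and 49.2% of all genes.

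Genes with the nearest pattern over the 11 libraries were sought for the 5 radial glia genes whose germline log2 level spanned more than 1 unit, among 13741 genes tested in both tables. The measure was the root mean square difference of centred log2 levels. The genes were picked by this measure, so a shared pattern follows from the choice and is no separate support. Sox2 was nearest to Ccdc6 (0.06) and Ticrr (0.07), and Sox9 was nearest to Chd7 (0.07). Both patterns were highest, among germline libraries, in knockout replicate 2, where Chd7 had 9873 normalized counts against 3905 to 5337 in the other germline libraries.

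Nes was nearest to Tmem2 (0.07), Plagl2 (0.08) and Xxylt1 (0.10). Fabp7 was nearest to Dleu7 (0.14), Sesn1 (0.14) and Atp6v0e (0.15). Sesn1, picked for its likeness to Fabp7, had 849, 607 and 515 counts in the germline wild-type libraries and 438, 446 and 453 in the knockouts. Hmga2 had no gene as close, with Fnd3c2 (0.23), Gyltl1b (0.24) and Fndc3c1 (0.26) nearest. The measure is not scaled by spread, and Hmga2 had the widest germline log2 span of these genes (2.23), so its distances do not compare directly.

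Markers of other cells bear on how bulk values of radial glia genes read. In the germline comparison 0 of 20 neuronal genes passed the thresholds in limma (most abundant Map2), nor did any of 12 intermediate progenitor genes (Elavl2), 12 ventral telencephalon genes (Dlx1), 15 cranial mesenchyme genes (Col3a1), 11 endothelial genes (Kdr), 11 erythroid genes (Hba-a2), 10 microglia genes (Csf1r) or 22 cycling cell genes (Mki67). An unadjusted P of 0.05 or less in limma was reached by 2 of the intermediate progenitor genes and by 0 of the others, beside 5.39% of all genes. In the inducible comparison 0 genes of these 8 lists passed, with Tubb3 and Eomes as the most abundant neuronal and intermediate progenitor genes. There an unadjusted P of 0.05 or less in limma was reached by 1 neuronal, 2 mesenchyme, 2 microglia and 1 cycling cell gene, beside 6.01% of all genes. The germline medians were -0.29 (neurons), -0.20 (intermediate progenitors), -0.03 (ventral telencephalon), -0.51 (mesenchyme), -0.51 (endothelium), -0.23 (erythroid), -1.39 (microglia) and -0.09 (cycling cells), and the inducible medians 0.09, -0.07, 0.27, 0.07, 0.12, -0.07, 0.42 and -0.01 in the same order. In germline knockout replicates 1, 2 and 3 the library medians were 1.76, -4.82 and 0.78 for mesenchyme, 0.67, -2.02 and 0.36 for endothelium, 0.52, -1.89 and 0.62 for erythroid cells, -0.08, -4.01 and 0.06 for microglia and -1.01, 0.93 and -0.78 for neurons. Replicate 2 thus lay on the other side of the wild-type mean from replicate 3 in each of these 5 lists. Of the retina and lens genes 0 of 5 (germline) and 0 of 4 (inducible) passed, with 0 at an unadjusted P of 0.05 or less in limma, Cryaa at or under 3 counts in all libraries and Six3 the most abundant.

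Genes past the thresholds were found in the lists of the cortical hem and choroid plexus and of low oxygen. Of 17 hem and choroid plexus genes tested, 6 were higher and 1 lower in the germline knockouts (list median 0.60) and 4 were lower in the inducible knockouts (list median -0.53). Over all genes tested, 2.07% were higher and 0.667% lower in the germline and 0.802% and 0.490% in the inducible knockouts. The largest germline values were Msx2 (1.94), Ttr (-1.77), Rspo2 (1.03) and Wnt8b (0.90), and the inducible ones Msx2 (-1.08), Bmp6 (-0.87), Foxj1 (-0.84) and Rspo1 (-0.84), all log2 fold changes. The hem sum was 9149, 11127 and 8181 in the germline wild-type libraries and 10693, 10210.2 and 10042 in the knockouts, with Ttr highest on average although Wnt8b was above it in wild-type replicate 3 and all 3 knockouts, and 15905 and 18555 against 14717, 13610.4 and 8416 in the inducible table, with Wnt8b the most abundant. Of 20 low oxygen and glycolysis genes, 14 were higher in the germline knockouts (list median 1.68), with Adm (3.99), P4ha2 (3.15), Slc16a3 (2.60) and Bnip3 (2.54) the largest and Ldha the most abundant. In the inducible knockouts 1 of 19, Ndrg1 (0.86), was higher (list median -0.11), with Eno1 the most abundant. The part of either list in the radial glia values was not tested.

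**Figure D5:**
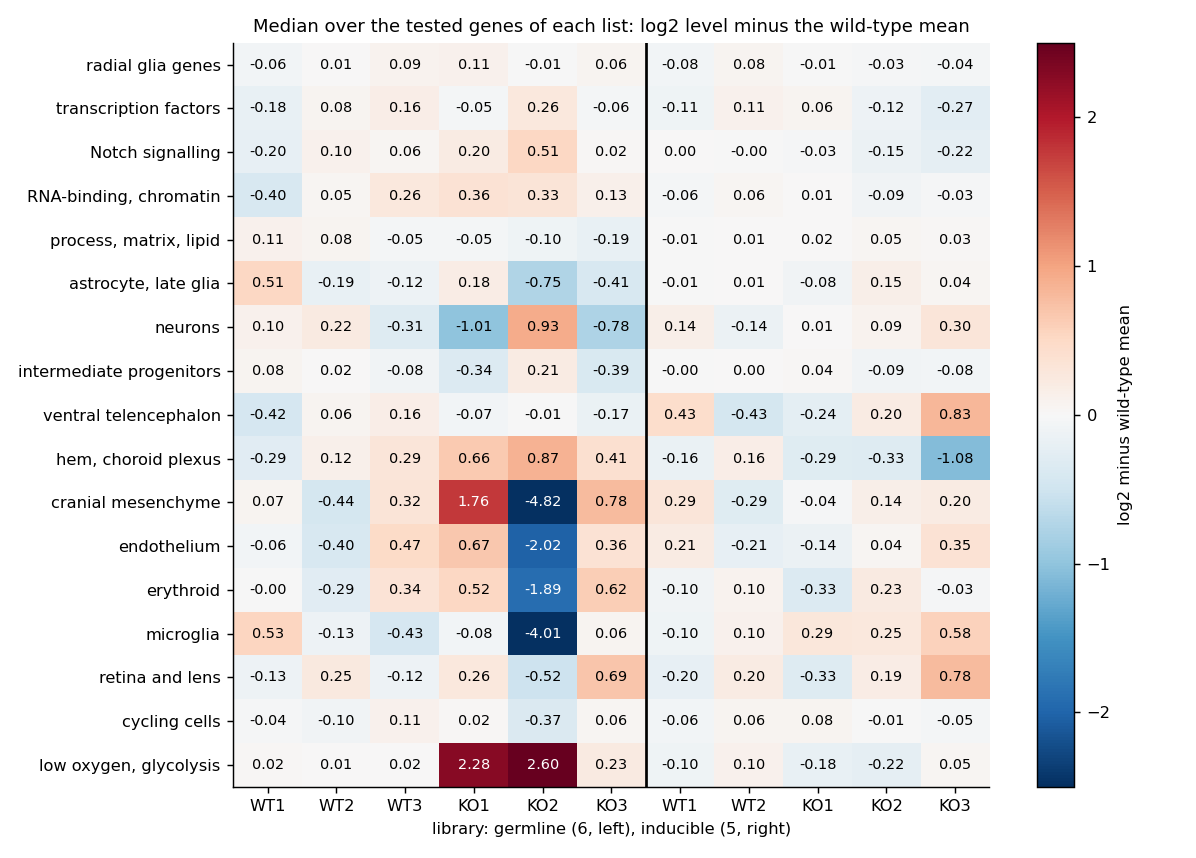
Median over the tested genes of each list of the log2 level minus the wild-type mean, for each library; colours stop at the ends of the scale while the printed values do not. The median of the radial glia genes stays between -0.08 and 0.11 in every library, although single genes run from -1.04 to 1.19, while the lists of low oxygen (2.28 and 2.60) and cranial mesenchyme (-4.82) stand out in germline knockout replicates 1 and 2.

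Y-linked RNA, a sign of sex, differed among the libraries as well. Kdm5d, a Y-linked gene, had 485, 1.63 and 1442.5 counts in the germline wild-type libraries and 0.52, 0 and 398 in the knockouts. Wild-type replicate 1 and knockout replicate 3 thus lay between the libraries near 0 and wild-type replicate 3, and the reason was not tested. In the inducible table Kdm5d was at 0 in both controls and at 1350.2, 1259 and 1386 in the knockouts. All 4 Y-linked genes in the table passed the thresholds there, against 0 of 4 in the germline comparison, although Ddx3y was at 2 counts in inducible knockout replicate 2. Kdm5d thus separated controls from knockouts, with no Y-linked gene above 3.17 counts in a control, so sex and genotype cannot be told apart in the inducible comparison, including for Sox9, Vim and Prom1. In the germline table, the Y-linked level as a covariate left Fabp7 the sole radial glia gene past the thresholds. Over all genes this covariate gave 67 lower and 110 higher calls, against 93 and 289 without it. Other germline log2 fold changes moved in both directions, such as Sox9 from 0.40 to 0.15 and Hmga2 from 0.79 to 0.97.

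These data leave limits on what the 9 genes can show. The libraries are few, and the inducible comparison rests on 2 controls. Germline knockout replicate 2 differs from the rest in neuronal, mesenchyme, microglia, endothelial and erythroid genes and, with replicate 1, in low oxygen genes. The germline wild-type libraries are not uniform either. Wild-type replicate 1 is the highest germline library for Fabp7 and Slc1a3 and the lowest for Sox2, Sox9 and Hmga2. Fabp7 passes the fold threshold only with it. Inducible knockout replicate 3 stands at one end for ventral telencephalon and cortical hem genes. Values were normalized by the authors, so raw counts, sequencing depth and mapping could not be examined. RNA levels do not give protein, cell number or cell position, and spliced forms such as those of Pax6 were counted as 1 gene. Kif20a RNA remained at 0.617 of its control level in the inducible knockouts, and its source was not tested.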

How the data were processed

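The authors selected poly(A) RNA, mapped it with TopHat to mm9, counted reads on RefSeq exons per gene and scaled libraries by trimmed M-value means with edgeR. The paper and the submitters' processing notes give different TopHat versions, 1.2.0 in the notes. The deposited signal is a normalized count per gene, neither whole nor scaled by gene length nor logged, in 1 table per comparison.

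The log2 of each normalized count plus 1 was fitted by limma 3.58.1 under R 4.3.3 (lmFit, then eBayes with trend, two-sided), after a test on simulated data. Genes averaging under 10 normalized counts were left out. Each table was fitted alone. Benjamini-Hochberg adjustment covered all genes tested. The plan foresaw gene lengths from the tables, which hold none, so GENCODE M1 lengths were used. The floor was 3 normalized counts. Most abundant means the highest mean over all libraries of a table.

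Named were the 9 genes, Kif20a, up to 4 genes past the thresholds per list and comparison by size of log2 fold change, the most abundant gene of each list of other cells, and nearest-pattern genes. Elp4, Cdc23, Gm16401, Gfap, Sparcl1, Cryaa, Ddx3y, Lin28a, Sox10 and Gjb6 were named in addition, after values were seen. The genes and 18 lists were chosen with earlier results of these data known. Xist has no entry under that symbol.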

Additional observations from a re-analysis of the deposited data

Results flagged for a closer look

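In 2 of the 9 radial glia genes, every germline knockout library lay on one side of its wild-type mean and every inducible knockout library on the other side of its own, on the log2 scale. Slc1a3 had log2 fold changes of -0.33 (germline) and 0.21 (inducible). Hmga2 had 0.79 (germline) and -0.21 (inducible). Of 13741 genes tested in both tables, 1486 (10.8%) lay on opposite sides in this way. In both genes and both tables the groups overlapped. Neither difference was tested, since the tables were normalized separately.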

How the results depend on the processing

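Fabp7 was past the thresholds in the germline comparison under a pseudocount of 0.1, no filter, quantile normalization, no trend, array weights and the Y-linked covariate, and 0 of the 9 inducible genes were past them under any setting run for that table. Leaving out single libraries gave 0 to 2 germline calls among the 9 and 0 inducible calls each time, and 1 to 3 germline and 3 to 7 inducible genes without overlap. The 3 were 2 lower and 1 higher (without wild-type replicate 3) and the 7 were 3 lower and 4 higher (without control replicate 2), where 22.01% and 51.6% of all genes did not overlap, against 13.5% and 22.6% with all libraries. With 1 control left, limma assumes that it varies like the other group.

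With single libraries left out, calls among the other progenitor genes ranged from 2 to 16 (germline, 3 with all libraries) and 0 to 2 (inducible, 1). They numbered 11 (germline) and 2 (inducible) with array weights and 0 (inducible) without a filter. Over all genes, array weights gave 484 lower and 560 higher (germline, 93 and 289 without them) and 84 and 141 (inducible, 69 and 113). The cause was not tested.

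Estimates that changed sign, as log2 fold changes, were germline Pax6 (-0.026 to 0.38 over single libraries left out), Nes (-0.48 to 0.060) and Prom1 (-0.00024 to 0.17), and inducible Pax6 (-0.20 to 0.31), Sox2 (-0.052 to 0.10, and -0.0089 with array weights), Fabp7 (-0.0014 to 0.17) and Hmga2 (-0.47 to 0.049). None of these was past the thresholds. In the other settings 63 of 63 germline and 53 of 54 inducible estimates kept their sign and their side of the thresholds. Sizes moved in both directions. With array weights germline Pax6 went from 0.21 to 0.004, Sox9 from 0.40 to 0.06 and Vim from 0.11 to 0.21. With a replicate block inducible Prom1 went from -0.14 to -0.06 and Pax6 from 0.05 to 0.17.

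With a replicate block, Fabp7 was still the 1 germline call and the inducible count was 0. The other progenitor calls were 2 (germline: Sox8 and Lin28b, without Zfp36l1) and 3 (inducible: Lin28a, Sox10 and Gjb6, without Aqp4). Over all genes the block gave 98 lower and 278 higher calls (germline) and 53 and 110 (inducible). Inducible knockout replicate 3 has no control of its number. The blocked inducible estimates of the radial glia genes therefore equal those without that library, and the block is no separate check there. Same-numbered libraries shared only a number: their deviations correlated at -0.116, 0.306 and 0.247 (germline) and -0.352 and -0.0513 (inducible). In the germline table wild-type replicate 1 correlated best with knockout replicate 2 (0.0882), and wild-type replicate 3 with knockout replicate 1 (0.334). With only 2 inducible controls, each correlation with 1 control is that with the other at the opposite sign.

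Sequencing depth cannot be read from the normalized values, so counting error is unknown.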
